A study of Mus musculus with 1094 samples.

Results

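The cells described here are the single cells labelled neural stem cell (NSC) at E11.5, the stage at which neurogenesis starts in the mouse dorsal cortex. All cells of the NSC E11.5 library with at least 1000 genes at 1 TPM or more were taken. TPM is a length-scaled share of a cell's transcripts. This gave 58 of the library's 59 cells, out of 1094 cells in the whole series. The cell left out had 5 genes at 1 TPM, and the next lowest had 2605.

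The series holds 17 libraries of sorted single cells from the dorsal cerebral cortex of wild-type C57Bl/6 females. Stem cells (NSC) were sorted by green fluorescence from Hes5::GFP mice. Basal progenitors (BP) and newborn neurons (NBN) were sorted from Tbr2::GFP mice. The E11.5 cells were set beside 88 NSC cells of E10.5, which share the reporter, strain and genotype, and, where named, beside 66 NSC cells of E13.5 and 72 BP cells of E12.5. The promoter of the reporter limits what was sampled: a cell enters by holding green protein, which can outlast the transcript that made it. The labels name no animals and no capture batches, so each library is 1 sample, and stage and capture cannot be told apart. Cells of 1 library are not replicates. The E11.5 cells had between 2605 and 6083 genes at 1 TPM (median 4512), and the E10.5 cells a median of 5688. Of the genes passing the filter below, 74.5% were found in a smaller share of cells at E11.5. Sequencing depth per cell is unknown, and no 2 of the deposited cells were identical.

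Radial glia are the neural stem cells of the embryonic cortex. Notch signalling between neighbours turns on Hes1 and Hes5, repressors that keep a cell from becoming a neuron, while cells that escape it turn on proneural factors, leave the cycle and make neuronal tubulin (Tubb3). Projection neurons of the cortex arise locally and use glutamate, whereas interneurons use GABA and arise in the ventral telencephalon under Dlx factors. Embryonic globins (Hbb-y, Hbb-bh1 and Hba-x) are the oxygen carriers of the primitive red cells that circulate at these stages, and the adult globins replace them.

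The promoter of Hes5 is shown because the Hes5 reporter chose these cells. The 250 bases before its start (RefSeq, GRCm38.p6, chr4:154960673-154960922, plus strand) are printed 5′ to 3′, with capitals marking GTGGGAA on either strand, the core bound by Rbpj, the DNA-binding partner of Notch.
Hes5: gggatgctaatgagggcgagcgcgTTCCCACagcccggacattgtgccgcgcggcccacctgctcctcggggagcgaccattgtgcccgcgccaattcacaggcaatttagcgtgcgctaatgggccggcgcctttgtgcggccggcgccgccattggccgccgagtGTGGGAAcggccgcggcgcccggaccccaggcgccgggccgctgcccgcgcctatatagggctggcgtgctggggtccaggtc
The matches begin 226 and 83 bases before the start and lie on opposite strands. GTGGGAA was present on either strand in 5.42% of 32851 RefSeq promoter windows of the same length.

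The promoter of Hbb-y is shown because Hbb-y was the globin found in most E11.5 cells. The 250 bases before its RefSeq start (GRCm38.p6, chr7:103853208-103853457, minus strand) are printed with capitals marking 3 short motifs known from globin promoters. They are the CACC box (CACCC on the forward strand), the CCAAT box, and a GATA site (GATAA), which lies on the reverse strand.
Hbb-y: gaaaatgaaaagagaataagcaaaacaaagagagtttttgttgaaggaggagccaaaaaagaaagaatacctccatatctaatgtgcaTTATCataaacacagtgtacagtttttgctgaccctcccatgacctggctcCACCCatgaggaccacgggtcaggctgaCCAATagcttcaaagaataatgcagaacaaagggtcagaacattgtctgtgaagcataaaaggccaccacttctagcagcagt
The CACC box begins 111 bases, the CCAAT box 83 bases and the GATA site 162 bases before the start. These motifs are common. On either strand, 52.0% of the promoter windows held the CACC box, 33.8% the CCAAT box and 22.6% the GATA site, so a match describes letters only.

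Many E11.5 cells sorted as stem cells leaned towards neurons, and few at E10.5 did. Each cell was scored by the mean log2(TPM + 1) of 14 radial glia genes and of 14 genes shared by neurons of all kinds. A cell was called neuron-leaning where the second mean was larger, and radial glia-leaning otherwise. At E11.5, 33 of 58 cells were neuron-leaning (56.9%, exact 95% interval 43.2 to 69.8). At E10.5 it was 3 of 88 (3.41%, 0.709 to 9.64), and at E13.5 34 of 66 (51.5%, 38.9 to 64.0). The intervals cover counting error only. All 72 BP cells of E12.5 were neuron-leaning.

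The classes are ranges of a score, not cell types. The difference of the list means ran from -4.39 to 7.59, and 17 of the 58 cells lay within 1 of the cut. A cell was said to hold a list when 3 or more members reached 10 TPM. The radial glia list was held by 51 cells and the pan-neuronal list by 51, and 45 cells held both (77.6%, 64.7 to 87.5). A further 1 cell held neither. At E10.5, 87 of 88 cells held the radial glia list and 19 the pan-neuronal list. Across the 58 cells the 2 list means were inversely related (Pearson r = -0.59, Spearman rho = -0.59), as a description of cells that share a library.

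**Figure D1:**
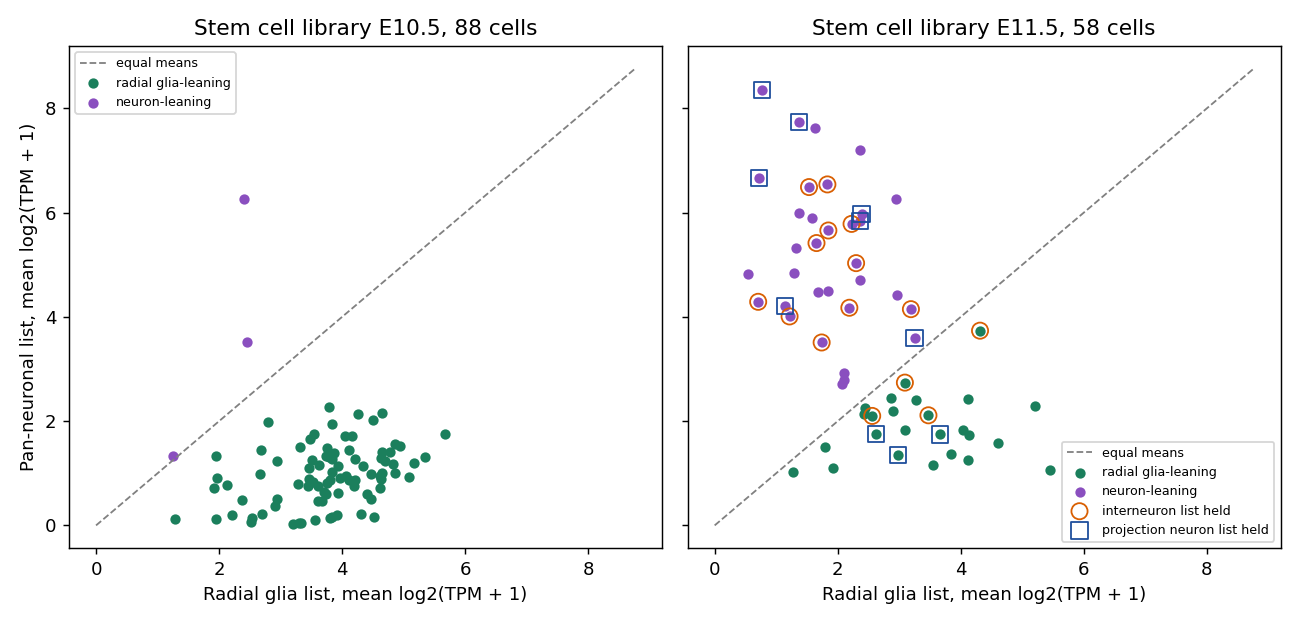
Each point is a cell, placed by its mean log2(TPM + 1) over the radial glia list (x) and over the pan-neuronal list (y), at E10.5 (left) and E11.5 (right), with the line of equal means dashed. At E10.5, 85 of 88 cells lie below the line, and at E11.5, 33 of 58 lie above it. Circles and squares mark the 15 and 10 E11.5 cells that held the interneuron and the projection neuron list.

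The 4 marker genes of the library went in different directions from E10.5. No test was possible between 1 library of each stage, so levels are given, and a difference of 1 or more in log2(mean TPM + 1), 2-fold, is called. Hes1 (chr16:30064384-30067796, GRCm38), the Notch effector, ranged from 0 to 93.3 TPM at E11.5 with a median of 0 and a mean of 7.73. At E10.5 its median was 18.47, its highest value 490 and its mean 41.5. It was at 1 TPM or more in 17 of 58 and 73 of 88 cells, a log2 difference of -2.28. Sox2 (chr3:34650405-34652461), a transcription factor of neural stem cells, had a median of 1.53 TPM and a highest value of 134, against 27.1 and 187 at E10.5. Its mean was 18.6 against 40.7 TPM (-1.09), and it was found in 30 of 58 and 73 of 88 cells. The ranges of both genes overlapped between the stages, and both medians were lower at E11.5.

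Tubb3 (chr8:123411424-123422015), the neuronal tubulin, went the other way. It ran from 0 to 21176 TPM at E11.5 with a median of 3394, and from 0 to 4376 with a median of 95.5 at E10.5. The means were 4661 and 221 TPM, a log2 difference of 4.39. The NSC E11.5 mean was higher than that of the 7 other NSC libraries, of which NSC E15.5 was next at 3134 TPM, and it was below the BP E12.5 mean of 5282 TPM. Tubb3 was also present in radial glia-leaning cells, with 23 of 25 at 1 TPM or more and a median of 1165 TPM against 6301 TPM in neuron-leaning cells. Hbb-y, the last marker, is described with the globins.

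Hes5 itself (chr4:154960923-154962371), whose promoter drives the reporter, was seldom found. It was at 1 TPM or more in 10 of 58 E11.5 cells, 9 of them radial glia-leaning, with a mean of 3.07 TPM and a highest value of 89.7. At E10.5 it was found in 21 of 88 cells, with a mean of 10.2 TPM. The NSC E13.5 and E15.5 means were as low, at 3.54 and 2.27 TPM, and the 2 postnatal NSC libraries stood at 52.5 and 54.7 TPM. Hes5 was at 0 in every BP E12.5 cell.

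**Figure D2:**
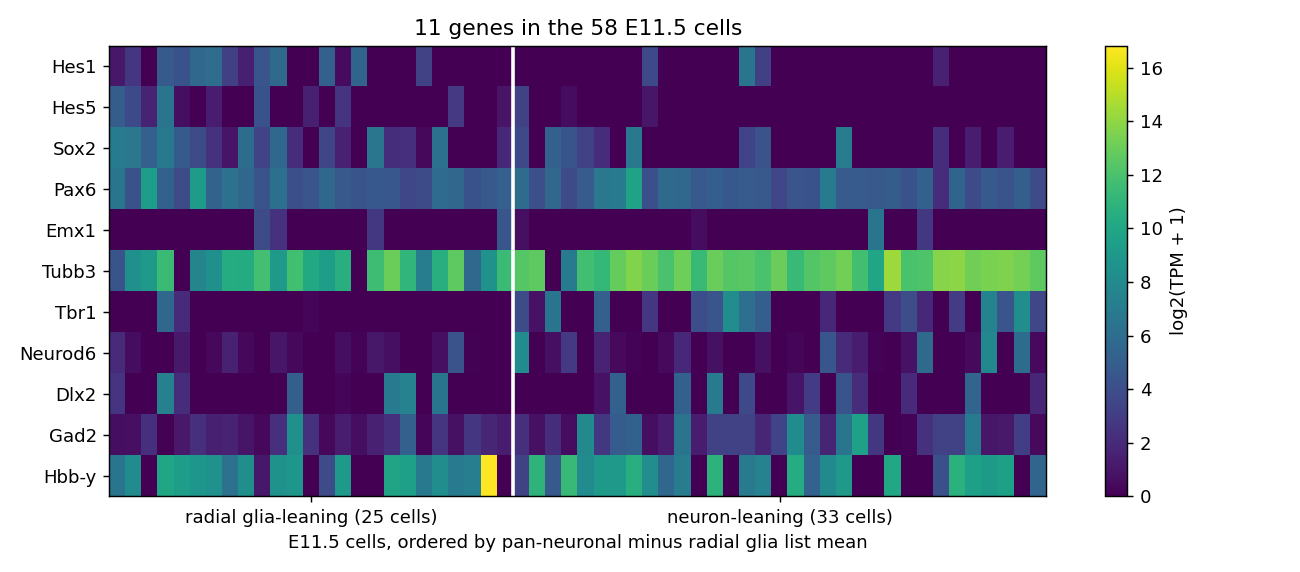
Log2(TPM + 1) of 11 genes (rows) in the 58 E11.5 cells (columns), ordered by the difference of the pan-neuronal and radial glia list means, with a white line between the 25 radial glia-leaning and the 33 neuron-leaning cells. Hes1 and Hes5 fill few columns and mostly left ones, Tubb3 fills all but 3, and Pax6 is at 1 TPM or more in all 58. The bright Hbb-y column is the cell of highest globin.

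Of the 14 radial glia genes, 4 were 2-fold or more lower at E11.5 than at E10.5 (Hes1, Hes5, Sox2 and Pax6) and 0 higher, with a median difference of -0.50. Over all 8751 genes with a mean of 10 TPM in either library, 15.9% were 2-fold lower and 20.3% higher, and the median was 0.06. These 14 genes, like the neuronal list, also defined the cell classes. Among the radial glia-leaning cells alone (25 at E11.5, 85 at E10.5) the same list had 3 members higher (Fabp7, the brain lipid-binding protein, at 1.72; the endothelin receptor gene Ednrb at 1.52; and Notch1 at 1.07) and 2 lower (Hes1 at -1.62 and Pax6 at -1.05). There 18.0% of 8421 genes were higher and 19.4% lower, with a median of 0.00. The Fabp7 difference lay in its mean, with a highest value of 3696 TPM at E11.5. Fabp7 reached 10 TPM in 13 of 25 and 45 of 85 of these cells, with medians of 11.6 and 13.9 TPM. Ednrb reached 10 TPM in 6 of 25 and 18 of 85, and Notch1 in 11 and 21. The Hes1 mean of these cells was 13.3 TPM at E11.5 and 42.9 TPM at E10.5.

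All 14 pan-neuronal genes were 2-fold or more higher at E11.5, with a median difference of 3.89. They include Dcx, a microtubule protein of migrating neurons (mean 167 against 5.02 TPM), the RNA-binding protein gene Elavl3 (97.7 against 9.46) and the growth cone gene Gap43 (76.5 against 2.12). Members of the list differed in how many neuron-leaning cells had them at 10 TPM. Dcx reached it in 30 of 33, the synaptic gene Snap25 in 18, Ina and Myt1l in 11 each, Rbfox3, the NeuN gene, in 7, and Mapt, the tau gene, in 6. In radial glia-leaning cells 9 of the list passed the filter, and 8 had means 2-fold higher than in those of E10.5 (median 3.00). The list helped to set this class, so these values are a description. Stmn2 was lower there (18.7 against 32.2 TPM). In these cells the Tubb3 median was 1165 against 94.6 TPM, while those of Stmn2, Stmn3, Elavl4, Gap43 and Nsg2 were 0 at E11.5.

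Genes outside the lists that most separated the classes of E11.5 cells were chosen by the difference in the share of cells at 1 TPM and are a description. In neuron-leaning cells these were, among others, the secretory granule gene Scg3 (23 of 33 against 1 of 25 cells), the zinc finger gene Myt1 (23 against 2), the splicing regulator Rbfox2 (25 against 2) and the collapsin response gene Dpysl3 (30 against 9). In radial glia-leaning cells they were the mRNA decay factor Zfp36l1 (19 of 25 against 3 of 33), the serine synthesis enzyme gene Phgdh (18 against 3), the gap junction gene Gja1 (16 against 2) and Rest (16 against 2), the repressor of neuronal genes outside neurons. Rest stood at a mean of 34.1 TPM in radial glia-leaning and 0.247 TPM in neuron-leaning cells. DNA replication genes were among them too, with Pold2 in 16 against 2 and Rpa2 in 17 against 4 cells.

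Cycling transcripts were found in both classes. The G2/M list (20 genes) was held by 22 of 25 radial glia-leaning cells (88.0%, 68.8 to 97.5) and 20 of 33 neuron-leaning cells (60.6%, 42.1 to 77.1). At E10.5, 87 of 88 cells held it, in BP E12.5 28 of 72 and in NBN E16.5 21 of 63. In neuron-leaning E11.5 cells its members ran from Ube2c, at 10 TPM in 20 of 33, and Birc5 in 18, to Cdk1 in 6 and Aurkb and Nusap1 in 3 each. The S phase list was held by 24 of 25 and 28 of 33 E11.5 cells. It was also held by 88 of 88 cells at E10.5, 63 of 72 in BP E12.5 and 55 of 63 in NBN E16.5. Holding either list therefore does not by itself mark a cycling cell. In neuron-leaning E11.5 cells the S phase members ran from Tyms and Slbp, at 10 TPM in 27 of 33 each, to Cdt1 and Ccne1 in 0. In all, 36 of 58 cells held both the G2/M and the pan-neuronal list. Doublets were not called, and their part in such cells was not tested. The difference of list means was lower where the G2/M mean was higher (r = -0.49, rho = -0.52 over 58 cells), and r was -0.05 with the genes per cell. Against E10.5, 7 of 19 G1/S and S phase genes were 2-fold lower and 0 higher (median -0.87), with the replication licensing genes Cdt1 at -1.99 and Mcm3 at -1.71. In the radial glia-leaning cells 2 were lower (Ccne1 at -1.32 and Ccne2 at -1.61). Of 20 G2/M genes 1 was higher (Ube2c, 1.11) and 1 lower (Kif23, -1.17).

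The basal progenitor genes that passed the filter were higher than at E10.5. Of 14, 11 passed, and all 11 were 2-fold or more higher (median 2.59). The filter took genes with a mean of 10 TPM in either library. Those below it at E10.5, such as Neurod1 and Gadd45g, passed only through E11.5, which fixed their direction. Eomes, the Tbr2 gene that marks basal progenitors, had a mean of 131 against 26.0 TPM and was at 1 TPM in 21 of 58 against 18 of 88 cells. Neurod1, a proneural factor of young neurons, had 62.9 against 5.53 TPM and was in 21 against 2 cells. Gadd45g, a growth arrest gene, had 184 against 4.02 TPM, in 26 against 5 cells. Within radial glia-leaning cells all 9 that passed were higher (median 3.30), led by Gadd45g at 5.63, beside the higher pan-neuronal genes of the same cells. Among these cells, Hes6, an antagonist of Hes1, reached 10 TPM in 11 of 25 cells at E11.5 and 10 of 85 at E10.5. The whole list was held by 29 of 58 E11.5 cells (10 of 25 radial glia-leaning and 19 of 33 neuron-leaning) and 5 of 88 at E10.5.

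Notch pathway genes differed in both directions. Of 18 genes, 12 passed, with 5 called higher and 3 lower (median 0.81). Of the ligand genes, Dll1 had 23.1 against 8.22 TPM and Dll3 10.1 against 0.844 TPM. Jag1, another ligand gene, was lower but just under 2-fold, with 18.7 against 38.1 TPM (-0.99), in 19 of 58 and 58 of 88 cells. Mfng, a glycosyltransferase that modifies Notch, had 164.8 against 14.9 TPM. The effector gene Hey1 was higher as well (1.06), in only 6 of 58 cells. The targets Hes1 (-2.28), Hes5 (-1.46) and Nrarp (-2.73) were lower. The receptor gene Notch2 was called higher by its mean (18.0 against 6.41 TPM) but was found in fewer cells, 22 of 58 against 68 of 88, and the mean of log2 values over cells gave -0.43. Within the radial glia-leaning cells 6 were higher and 2 lower, with Mfng at 4.83, Dll1 at 2.02, Hes1 at -1.62 and Nrarp at -2.19. In these cells Notch2 reached 10 TPM in 16 of 25 at E11.5 and 21 of 85 at E10.5, with medians of 22.2 and 3.70 TPM. Of the neuron-leaning E11.5 cells, 1 of 33 had Notch2 at 10 TPM. The Notch pathway list was held by 21 of 25 radial glia-leaning and 6 of 33 neuron-leaning cells, but it shares Hes1, Hes5 and Notch1 with the radial glia list that set these classes.

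**Figure D3:**
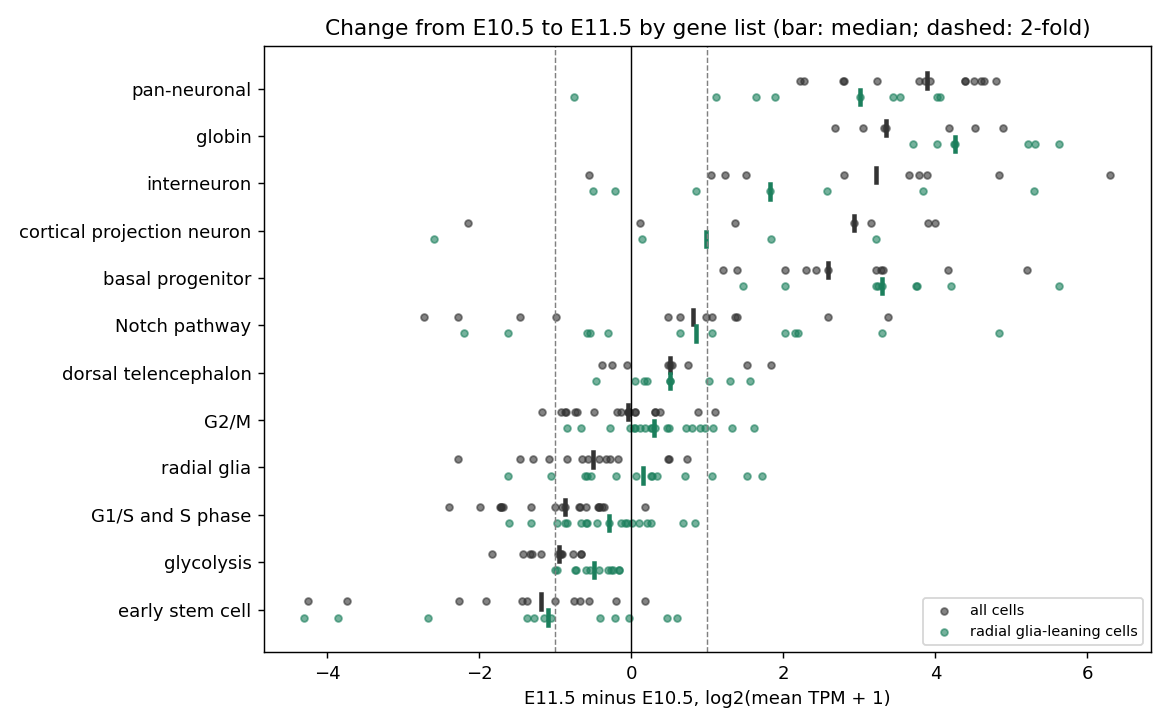
Difference of log2(mean TPM + 1) between NSC E11.5 and NSC E10.5 for each gene that passed the filter (points), by list, over all cells (dark) and over radial glia-leaning cells (green), with bars at the medians and dashed lines at 2-fold. Pan-neuronal genes all lie right of the 2-fold line over all cells, early stem cell genes centre at -1.19 and -1.10, and glycolysis genes all lie left of 0.

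Transcripts of the earliest stem cells were lower, whichever cells were taken. Of 12 early stem cell genes, 7 were 2-fold lower and 0 higher at E11.5 (median -1.19), and in radial glia-leaning cells also 7 and 0 (median -1.10). Hmga2, a chromatin protein of young stem cells, had a median of 7.53 TPM and a highest value of 772 at E11.5, against 419 and 1766 at E10.5. Its means were 113 and 547 TPM, found in 35 of 58 and 86 of 88 cells. Lin28a, an inhibitor of let-7 processing, was at 0 in every E11.5 cell, which by the limit of 3 counts in 58 allows a share of cells with the transcript detected of up to 5.17%, and was at 1 TPM or more in 22 of 88 E10.5 cells, with a mean of 18.0 TPM. Wfdc2 was at 1 TPM in 2 of 58 and 51 of 88 cells. The growth regulator Igf2bp1 hardly differed (0.18).

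Glycolysis genes were lower together. All 12 of 14 that passed had negative differences, 5 of them past 2-fold (median -0.95). Ldha, lactate dehydrogenase, had means of 1044 and 3708 TPM, and Eno1, enolase, 1436 and 3841 TPM. In the radial glia-leaning cells all 12 were again negative but smaller, with a median of -0.48 and 1 past 2-fold, Aldoa. The 13 mitochondrial genome transcripts had a median of -0.48 with none past 2-fold. Fewer genes were found per cell at E11.5, as given above, and the part of this in the lower levels was not tested.

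The interneuron list and the cortical projection neuron list were each held by part of the E11.5 cells. The interneuron list (12 genes) was held by 15 of 58 cells (25.9%, 15.3 to 39.0), 11 of them neuron-leaning. It was held by 1 of 88 cells at E10.5, 6 of 66 at E13.5 and 3 of 72 in BP E12.5. The share at E11.5 was not the highest, since 20 of 76 NSC cells of E17.5 and 20 of 45 NSC cells of P0 held the list, beside 10 of 86 at E15.5. The cortical projection neuron list (10 genes) was held by 10 of 58 cells (17.2%, 8.59 to 29.4), 7 of them neuron-leaning, by 46 of 66 at E13.5 (69.7%) and by 69 of 72 in BP E12.5 (95.8%). In no E11.5 cell were both held. A further 15 of the 33 neuron-leaning cells held neither.

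The 15 cells that held the interneuron list did so through different members. Dlx5 (chr6:6877805-6882085), a homeobox factor of ventral telencephalic cells, reached 10 TPM in 14 of them, with a median of 180 TPM and a highest value of 1568. Gad2, a GABA synthesis enzyme gene, reached 10 TPM in 11, with a median of 36.3 TPM and a highest of 772. Sp9 reached it in 10, Dlx2 in 9, and Gad1 and Lhx6, a factor of interneurons from the medial eminence, in 7 each. Dlx6 reached it in 3, Slc32a1, the vesicular GABA transporter gene, in 2 and Dlx1 in 1. Lhx6 reached 1145 TPM in its highest cell. All 15 had Tubb3 between 1498 and 13598 TPM. Emx1, Emx2, Lhx2 and Fezf1, factors of the dorsal telencephalon, and Eomes and Neurod6 reached 10 TPM in none of them, and Bcl11b, of the projection neuron list, in 6. Since the cells were chosen by the interneuron genes, those levels are a description.

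Emx1 (chr6:85187438-85204462), a homeobox factor of the dorsal telencephalon, was scarce in the library as a whole. It was at 1 TPM in 6 of 58 E11.5 and 13 of 88 E10.5 cells, with means of 2.47 and 2.97 TPM, and had a mean of 46.6 TPM at E13.5. The dorsal telencephalon list was held by 47 of 58 cells, and its members Tcf4, Nr2f1 and Nr2f2 were at 1 TPM in 56, 40 and 39 of the 58. Nr2f1 (261 against 90.1 TPM) and Nr2f2 (168 against 46.3 TPM) were the 2 members of 9 passing that were 2-fold higher than at E10.5. The ventral telencephalon list, which shares Dlx1, Dlx2 and Nkx2-1 with the interneuron list, was held by 5 cells, all of them among the 15.

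The 10 cells that held the projection neuron list, and the 15 neuron-leaning cells that held neither list, were described in the same way. The first set was chosen by its projection neuron genes, so their levels are a description. In it Tbr1 and Slc17a6, a T-box factor and the vesicular glutamate transporter of young cortical neurons, reached 10 TPM in 6 of 10 each, Nfia in 9, Neurod6 in 4, Neurod2 in 1, and Slc17a7 and Bhlhe22 in 0. Of dorsal telencephalon genes, Lhx2 reached it in 7, Emx2 in 5, Otx1 in 3, Dmrt3 in 2 and Emx1 in 0. Neurod1 reached it in 8. In the second set Eomes reached 10 TPM in 11 of 15, with a median of 262 TPM, Neurod1 in 10, Lhx2 in 9, Slc17a6 in 7, Tbr1 in 6, Emx2 in 3 and Emx1 in 1, while Dlx5 reached it in 1.

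Among neuron-leaning cells, several projection neuron genes were found in a smaller share at E11.5 than in the other libraries set beside it. Neurod6, a factor of postmitotic cortical neurons, reached 10 TPM in 5 of 33 cells at E11.5 (15.2%), in 33 of 34 at E13.5 (97.1%) and in 62 of 72 in BP E12.5 (86.1%). Its means were 19.9, 1501 and 1202 TPM. Neurod2 reached 10 TPM in 0 of 33 cells, in 25 of 34 and in 43 of 72. Nfia reached it in 11 of 33, 34 of 34 and 66 of 72. Tbr1 was closer, with 13 of 33 cells (39.4%), 19 of 34 (55.9%) and 45 of 72 (62.5%), and so was Slc17a6 with 13, 16 and 47. Bcl11b, a factor of deep layer neurons, reached it in 5 of 33, 27 of 34 and 46 of 72 cells. The libraries differ in reporter or stage, and no test between them was possible.

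**Figure D4:**
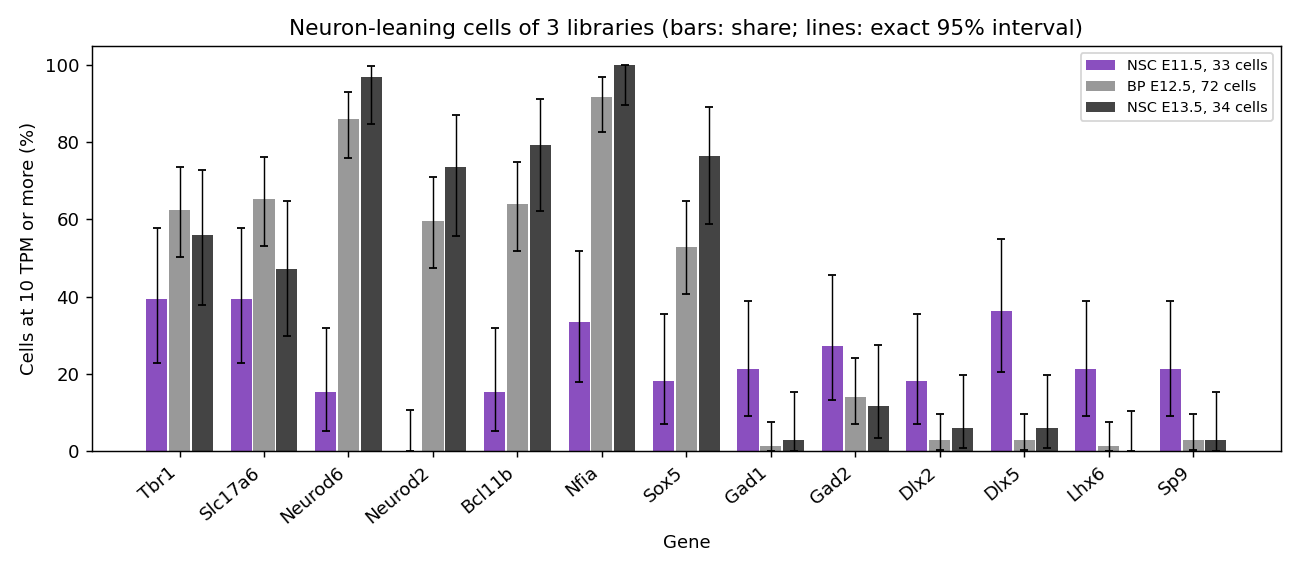
Share of neuron-leaning cells at 10 TPM or more (bars, with exact 95% binomial intervals for counting error) for 7 projection neuron genes (left) and 6 interneuron genes (right) in NSC E11.5 (33 cells), BP E12.5 (72) and NSC E13.5 (34). Neurod6 stands at 15.2%, 86.1% and 97.1%, and Dlx5 at 36.4%, 2.78% and 5.88%.

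Most interneuron genes were higher than at E10.5. Of 12, 10 passed and 9 were 2-fold higher (median 3.22), Sp8 being the exception at -0.55. As with the basal progenitor genes, those under 10 TPM at E10.5 passed only through E11.5 and could only be higher. Dlx5 had the largest difference of all genes named by size, with means of 92.4 and 0.186 TPM, in 18 of 58 and 1 of 88 cells. The cells of highest Dlx5 were few, and its median was 0 in both libraries. Dlx5 was found again in later NSC libraries, with means of 38.2 TPM at E15.5 and 100.8 TPM at E17.5, but had 2.71 TPM at E13.5. Of the 7 projection neuron genes that passed, 5 were higher and Fezf2, a factor of corticofugal neurons and early progenitors, was lower (7.97 against 38.8 TPM). The difference of Fezf2 in radial glia-leaning cells was -2.59.

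Other genes with the largest positive differences from E10.5 were Rab3a, a synaptic vesicle GTPase gene (78.8 against 0.0498 TPM, in 17 of 58 and 2 of 88 cells), Cnr1, the cannabinoid receptor gene (119 against 1.27 TPM), Ndn, the imprinted neuronal gene necdin (286 against 5.01 TPM, in 33 and 12 cells), and Cbfa2t3, a transcriptional corepressor gene (34.0 against 0.0835 TPM). Sertad4, Golga7b, Ypel3 and Abcg1 completed the set with Gadd45g. The largest negative differences were mostly of genes found in part of the E10.5 cells and in few or none at E11.5. Stat4 was in 21 of 88 and 0 of 58 cells, Pter in 18 and 0, Cth, a cysteine synthesis enzyme gene, in 20 and 1, and Nr6a1, the germ cell nuclear factor gene of early embryonic cells, in 21 and 0. Others were Ube2e2, Zfp612, Echdc2, Tagln2 and Ptpn13. Tbata stood apart, since it was in 55 of 58 and 82 of 88 cells with a highest value of 7543 TPM in 1 cell of E10.5.

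Within the radial glia-leaning cells the largest positive differences outside the lists were of Ypel3 (59.6 against 0.324 TPM), Fam161a (56.7 against 0.548), Add2 (57.7 against 1.47), Glipr2 (80.1 against 2.84), Zbtb20, a zinc finger factor of the developing forebrain (88.9 against 3.26), and Lzts1 (220 against 10.2), a regulator of the detachment of new neurons. Lzts1 was in 12 of 25 and 15 of 85 cells and Zbtb20 in 13 and 16. Ypel3 was in 7 and 1 cells, Fam161a in 6 and 10, Add2 in 6 and 7 and Glipr2 in 5 and 8, each with a median of 0 TPM at E11.5. The highest E11.5 cell had 1178 TPM of Fam161a, and that of Glipr2 had 1222 TPM, so these means lean on few cells. The largest negative differences were of Asb8 (0.704 against 121 TPM) and Eno3, the muscle-type enolase gene (0 against 56.9 TPM, in 0 of 25 and 26 of 85 cells). Mogat2, D6Wsu163e, Narg2, Ipo13, Stat4, Ube2e2, Hist2h2bb and Vps4a followed.

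Globin transcripts were found in most E11.5 cells. The 7 globin genes summed to at least 100 TPM in 50 of 58 cells (86.2%, 74.6 to 93.9), with a lowest value of 0, a median of 780 and a highest of 300697 TPM. Only 4 cells were at 0. At E10.5 it was 40 of 88 cells (45.5%, 34.8 to 56.4), with a median of 38.0 and a highest of 18876 TPM, and 38 cells at 0. At E13.5 it was 6 of 66 cells. In BP E12.5 no cell reached 100 TPM, and the median was 0 in the 15 libraries other than these first 2. Both classes of E11.5 cells had them, with 29 of 33 neuron-leaning and 21 of 25 radial glia-leaning cells at 100 TPM. The log10 of the summed level had r = 0.05 and rho = 0.10 with the neuronal score over 58 cells.

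**Figure D5:**
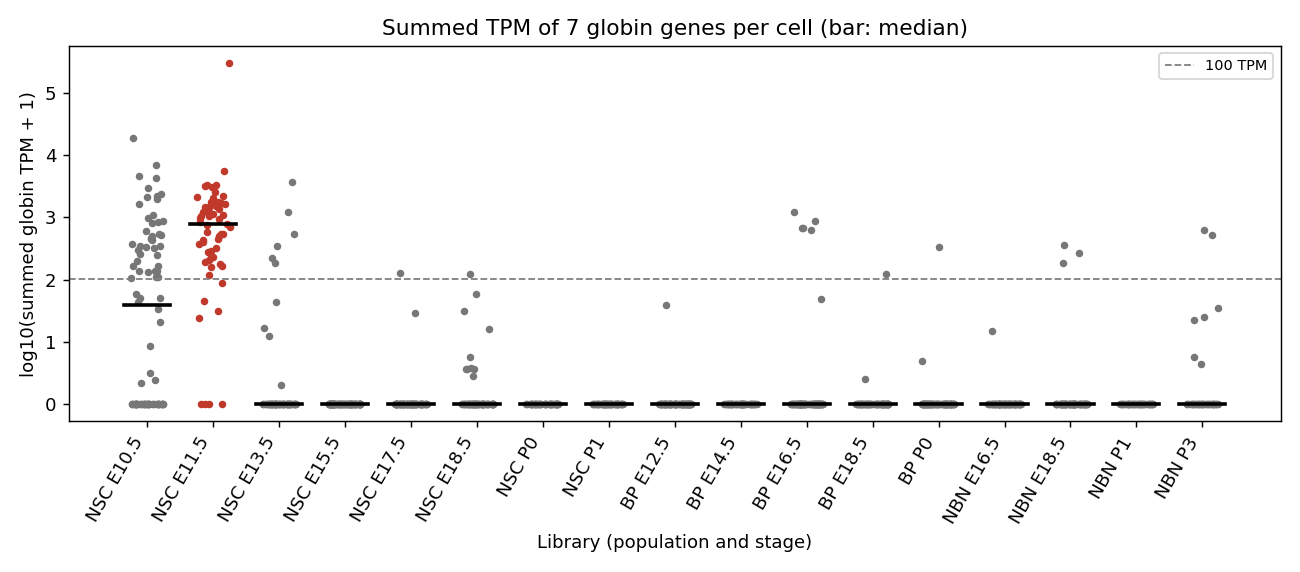
Log10(summed TPM of 7 globin genes + 1) of every cell (points) in the 17 libraries, with bars at the medians and a dashed line at 100 TPM; NSC E11.5 is in red. The NSC E11.5 median is 780 TPM, the NSC E10.5 median 38.0 TPM, and the other 15 medians are 0.

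The globins were those of the embryo together with adult alpha globin. Hbb-y (chr7:103851749-103853216), the embryonic epsilon-type chain, was at 1 TPM or more in 45 of 58 cells with a median of 220 TPM, against 32 of 88 cells and a median of 0 at E10.5. Hba-x (chr11:32276400-32278116), the embryonic zeta chain, was in 37 of 58 against 26 of 88 cells, and Hbb-bh1 (chr7:103841637-103843164) in 34 against 31. Hba-a1 and Hba-a2, near-identical copies of adult alpha globin whose split is uncertain, were in 40 cells each. The adult beta genes Hbb-bs and Hbb-bt, which are also near copies, were in 5 and 7 cells. Of the 50 cells at 100 TPM, Hbb-y was the largest globin in 26, Hbb-bh1 in 10, Hba-x in 9, Hba-a2 in 4 and Hbb-bs in 1. A median cell had 4 of the 7 genes at 1 TPM or more, and a median E10.5 cell 1.

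A single cell, number 45, held most of the summed globin level. Globins made up 30.1% of its TPM, and the next highest cell had 5490 TPM. With it the 7 globins had log2 differences from E10.5 of 2.68 to 4.90 (median 3.35), all past 2-fold. Without it Hbb-y was at 0.55 (425 against 291 TPM), Hbb-bh1 at -0.15, Hba-x at 1.43, Hba-a1 at 0.96, Hba-a2 at 1.06, Hbb-bs at 2.71 and Hbb-bt at 3.38. Hba-x in radial glia-leaning cells went from 5.21 to 1.33. The summed globin mean went from 6212 to 1046 TPM, against 687 at E10.5, whereas the median over the other 57 cells was 764 TPM. The E10.5 mean also leaned on its highest cell. With the highest cell of each stage left out, the means were 1046 and 478 TPM and the medians 764 and 32.7 TPM. Hbb-y was then at 1.18, Hbb-bh1 at 0.23, Hba-x at 1.89, Hba-a1 at 1.56, Hba-a2 at 1.62, Hbb-bs at 2.70 and Hbb-bt at 3.38, so 6 of 7 globins were past 2-fold. The median was higher at E11.5 in each of these settings.

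Cell 45 had the highest sum of other red cell transcripts. It had Slc4a1, the band 3 anion exchanger gene, at 470 TPM, the mitochondrial iron importer gene Slc25a37 at 921, Alas2, the erythroid heme synthesis enzyme gene, at 64.2 and Hemgn at 37.5 TPM. Its Sox2, Hes1 and Hes5 were at 0, and it fell among radial glia-leaning cells by a difference of -0.24. Over the other 57 cells, Slc4a1 was at 0 in each and Gata1 below 1 TPM in each, and Alas2 and Klf1 were found in 1 cell each. Others were higher in single cells, with Slc25a37 up to 221 TPM, Fech up to 114.8 and Nfe2 up to 43.9. Of all 58 cells, 21 had a non-globin erythroid gene at 10 TPM or more, and the list was held by 2, cell 45 and 1 other. The 11 non-globin erythroid genes summed to 1778 TPM in cell 45. In the other 57 cells their sum had a median of 6.87 TPM (0 to 821, mostly Tfrc, the transferrin receptor gene that dividing cells use). At E10.5 the sum ran from 0 to 734 TPM with a median of 110. The part of red cells or of their RNA in the globin levels was not tested.

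Lists of other cell types were held by few or no cells. The microglial, endothelial and mural lists were held by 0 of 58 cells, which by the same limit allows a share of up to 5.17% each, and 7 of 9, 6 of 8 and 3 of 7 members were at 0 in every cell. Aif1, C1qa, Ptprc, Pecam1, Cdh5 and Kdr were at 0 in every cell. The meningeal list was held by 2 cells, the Cajal-Retzius list by 2 and the choroid plexus and hem list by 1. Single members were higher than at E10.5, Nhlh2 of the Cajal-Retzius list with 21.7 against 1.38 TPM and Rspo3 of the hem list with 53.6 against 14.9 TPM, while Reln, which marks Cajal-Retzius cells, had a mean of 0.355 TPM. Otx2, a factor of the early midline and forebrain, was at 4.78 TPM at E11.5 and 82.3 TPM at E10.5, in 3 of 58 and 48 of 88 cells. Pax6 was at 1 TPM or more in every cell of both stages and in 97.0 to 100% of cells in every other library, so its share of cells says little, and its median was 26.7 against 80.6 TPM. The stress gene Atf3 was at 0 in all 58 cells and at 1 TPM or more in 9 of 88 at E10.5.

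Set against the age course of all libraries, no gene of the E11.5 library departed beyond their spread. The value of the NSC E11.5 library was compared with an age line through the other 7 NSC libraries, with the spread taken from all 17 libraries around their own population's line. Of 14099 genes tested with limma and Benjamini-Hochberg adjustment, 0 departed above and 0 below (percent called 0 in each direction), 379 had an unadjusted p under 0.05, and the smallest adjusted p was 1. The same limma fit on simulated libraries recovered 6% of departures of 2 log2 units, 44% of 4, 76% of 6 and 90% of 8, so it could miss most of the differences above. Listed by direction alone, all 11 interneuron genes tested lay above the line (median 2.46) and 13 of 14 pan-neuronal genes did (median 1.59). Of 10 projection neuron genes 2 did (median -0.94). Over all genes 6090 of 14099 lay above it, with a median of -0.14. Dlx5 lay 5.16 ± 1.77 (SE) above it, Tubb3 2.59 ± 1.20 above, Hes1 at -1.96 ± 1.51 and Emx1 at -2.11 ± 1.67, each with limma adjusted p = 1. The 4 globin genes tested lay 4.50 to 5.68 above, with library means that include cell 45. Without that cell the E11.5 mean of Hba-a1 was 91.9 rather than 480 TPM and that of Hba-a2 123 rather than 606 TPM. Hbb-bs then had 16.4 rather than 60.2 TPM and Hbb-bt 15.1 rather than 45.0 TPM.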

How the data were processed

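The authors deposited 1 table of TPM per library, with 23078 genes and 1094 cells in 17 tables. TPM were made with kallisto 0.43.0 on GRCm38.p2 or mm10, per the submitters' processing notes. The labels' protocols name FACS of dissociated cortex, microfluidic capture, full-length amplification and single reads of 75 bases. The authors deposited only whole values in 7 cells, and these columns were recorded as a score, not as counts, and treated as TPM. Depth cannot be read from TPM.

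The members and gene lists were chosen with earlier results of these data known. Library values were log2(mean TPM over cells + 1), which understates changes of low genes. With 1 library per stage, the E11.5 and E10.5 values have no test. Genes needed a mean of 10 TPM in either library, so a gene below it in 1 library could differ in only 1 direction. Genes named by size were the 10 largest differences each way, found in 20% of cells where higher, plus list members. The age line was fitted with limma 3.58.1 in R 4.3.3 (10 residual degrees of freedom, threshold 0.05) and tested on simulated data. Its p-values measure the spread between libraries, which may be technical. P0, P1 and P3 were set to 18.5 days plus the labelled age. Intervals are Clopper-Pearson at 95%. Gene positions are from GENCODE M21. Python 3.11.15, pandas 2.3.3 and SciPy 1.17.1 were used. Alternatives changed the pseudocount, averaging, scaling, filters, cells and libraries. Values of some single list members are not reported here.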

Additional observations from a re-analysis of the deposited data

How the results depend on the processing

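The E11.5 to E10.5 counts moved with the settings, from 1775 genes higher and 1390 lower. They became 1062 and 767 with a pseudocount of 10, 655 and 419 at 4-fold, 2702 and 2578 with no filter, and 570 and 412 with a filter of 50 TPM. The mean of log2(TPM + 1) over cells gave 397 and 2130, so most of the genes called then were lower at E11.5, and the median of all genes shifted to -0.42. Within radial glia-leaning cells, 1517 higher and 1630 lower became 935 and 953 with a pseudocount of 10, 518 and 698 at 4-fold, and 277 higher with the mean of log2, where the lower count was 1540. Of 107 called genes named or listed, 75 kept the call under the mean of log2 and 31 fell under 2-fold, and Notch2 turned to -0.43. Without the cell of highest globin, an alternative chosen after seeing the data, 103 kept the call and Hbb-bh1 turned to -0.15. Without the highest-globin cell of each stage, also chosen after seeing the data, 2 of the 107 were under 2-fold, Hbb-bh1 (0.23) and Ccnd1 (-0.99).

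The neuron-leaning share stayed between 48.3% (a difference above 1) and 57.6% (all 59 cells). Cells with globin were 25 of 58 (43.1%) at 1000 TPM. Departures from the age line rose from 0 to 9 above with a pseudocount of 10 (among them Hba-a1, Hba-a2, Hbb-bs and Hbb-bt), 4 above with the mean of log2 (Hba-a1, Hba-a2, Akr1b8 and Isl1), and 138 above and 5 below with no filter. They were 0 to 0 over fits leaving out each other library. No paired analysis was possible because replicate numbers only name cells and each stage is 1 library. Unknown depth and 58 cells limit low genes.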
